A study of Homo sapiens with 6 samples.

Results

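The estrogen receptor coregulators examined here are 9 genes, taken by symbol from a count table of 26364 genes: GREB1, NRIP1, NCOA1, NCOA2, NCOA3, NCOR1, EP300, CREBBP and MED1. All 9 are in the table, and all 9 passed the filter on low counts that left 15611 genes for testing. They were read in 6 poly(A)-selected RNA-seq libraries of Ishikawa cells, a human endometrioid adenocarcinoma line. The parental line and 2 single clones with a knockout of ETV4, an ETS-family transcription factor, were each kept for 5 days in medium depleted of hormones. Each line then received either the vehicle, 0.1% DMSO, or 10 nM 17β-estradiol (E2), and gave 1 library per treatment, so the knockout groups hold n = 2 clones and the parental groups 1 library each. The treatment lasted 8 h according to the protocol and 1 h according to the sample characteristics. With 1 parental line, the effect of the knockout cannot be told apart from other differences between that line and the clones, and p-values measure only the spread between these libraries.

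Estradiol acts through estrogen receptor α, the product of ESR1, a transcription factor that needs partner proteins to change transcription. On binding the hormone, its ligand-binding domain takes up the p160 coactivators NCOA1, NCOA2 and NCOA3, which bring in the histone acetyltransferases EP300 and CREBBP, while MED1 links the receptor to the Mediator complex and so to RNA polymerase II. NCOR1 is a corepressor scaffold that carries histone deacetylase activity, and NRIP1 (RIP140) is a corepressor that binds the hormone-occupied receptor and competes with the coactivators. GREB1 is an early estrogen-response gene whose protein binds the receptor. GREB1 and NRIP1 are thus known both as cofactors of the receptor and as its target genes, whereas the other 7 are usually thought of as constitutively expressed.

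NRIP1 is the one gene of the pair of known receptor targets for which promoter sequence was at hand, and 2 stretches of 250 bases before annotated starts of NRIP1 are shown because the gene changed with E2. They come from RefSeq on GRCh38.p14, at chr21:15065937-15066186 and chr21:15065001-15065250, both on the minus strand and written 5′ to 3′. The counts themselves were made on another build, hg19. Capitals mark the estrogen response element half-site GGTCA on either strand.
NRIP1 upstream start: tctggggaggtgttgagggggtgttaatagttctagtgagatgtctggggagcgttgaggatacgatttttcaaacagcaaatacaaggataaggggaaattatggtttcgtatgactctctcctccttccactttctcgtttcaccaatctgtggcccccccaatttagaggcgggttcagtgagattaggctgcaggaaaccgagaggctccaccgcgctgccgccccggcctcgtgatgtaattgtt
NRIP1 downstream start: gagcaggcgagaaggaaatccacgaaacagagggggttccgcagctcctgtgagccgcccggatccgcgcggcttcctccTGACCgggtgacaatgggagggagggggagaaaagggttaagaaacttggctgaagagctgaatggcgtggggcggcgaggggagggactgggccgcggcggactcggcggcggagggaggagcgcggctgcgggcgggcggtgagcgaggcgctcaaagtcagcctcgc
The window of the downstream start holds 1 half-site, written TGACC on the strand shown, and the window of the upstream start holds none. Of all 35116 promoter windows of this length in the table, 32.6% hold GGTCA on either strand, and 2 of the 13 windows of the 7 coregulators in the table do so, 1 of NRIP1 and 1 of MED1. The full palindromic element, GGTCA and its reverse complement TGACC with 3 bases of any kind between them, was in none of the 13 and in 0.0399% of all windows. The ETS-type sequence CCGGAA, which does not overlap GGTCA, was in 3 of the 13 windows, 1 each of NCOR1, NCOA3 and a further NRIP1 start, and in 14.5% of all windows.

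The libraries held 28037392 to 36829479 counts, with 17755 to 18658 genes detected. ETV4, the knocked-out gene, was read first: its level in CPM (read counts scaled to library size, after TMM scaling) was 19.7 with DMSO and 28.4 with E2 in parental cells, and 2.42 to 3.40 in the 4 clone libraries. Summed over 6 epithelial marker genes the libraries held 1964 to 2927 CPM, against 46.5 to 85.8 CPM for 5 stromal genes, 1.61 to 3.96 CPM for 3 endothelial genes and 2.29 to 4.68 CPM for 3 immune genes, of which CD3E was at 0 throughout. Of 4 markers of the Müllerian lineage, summing to 454 to 656 CPM, PAX2 was at 0. The parental DMSO library stood apart: it had the fewest genes detected and a TMM factor of 0.899, against 1.01 to 1.04 in the other 5.

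GREB1 and NRIP1 rose with E2 over the 3 lines and were higher with it in each line, and no other coregulator passed the test. GREB1 had 5.14 CPM with DMSO and 50.1 CPM with E2 in parental cells, 8.26 and 59.9 CPM in clone 1, and 9.83 and 66.2 CPM in clone 2. The 3 E2 libraries lay far above the 3 DMSO libraries, and in both treatments the parental library was the lowest. The lowest level rested on 153 counts, with an exact 95% Poisson interval of 4.36 to 6.02 CPM that covers counting error only. The change within a line was 9.64-fold in parental cells, 7.21-fold in clone 1 and 6.70-fold in clone 2. Over the 3 lines GREB1 rose by 2.96 on the log2 scale (SE 0.16, 95% interval 2.57 to 3.34), with edgeR giving an adjusted p of 0.00214. By p-value it ranked 3 among the 15611 genes, and 64 genes had a larger increase.

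NRIP1 started from a higher level and rose less. It had 43.6 CPM with DMSO and 89.8 CPM with E2 in parental cells, 61.1 and 120.0 CPM in clone 1, and 50.5 and 129 CPM in clone 2. Here too the 3 E2 libraries lay above the 3 DMSO libraries, and the increase was 2.06-fold, 1.96-fold and 2.55-fold in turn. Over the 3 lines the log2 change was 1.12 (SE 0.12, 95% interval 0.82 to 1.42), with edgeR giving an adjusted p of 0.0143. Without the parental line, or without its DMSO library alone, the log2 change was 1.15 or 1.14 and the adjusted p was 0.0600 or 0.0629 in the same edgeR test, above the threshold of 0.05. Thus 2 of 9 coregulators were called higher, against a background of 0.903% of all genes tested, and none of the 9 was called lower (background 0.224%, or 1.13% in either direction). With the replicate block, which compares libraries of the same line, the same 2 passed (background 2.46%).

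**Figure D1:**
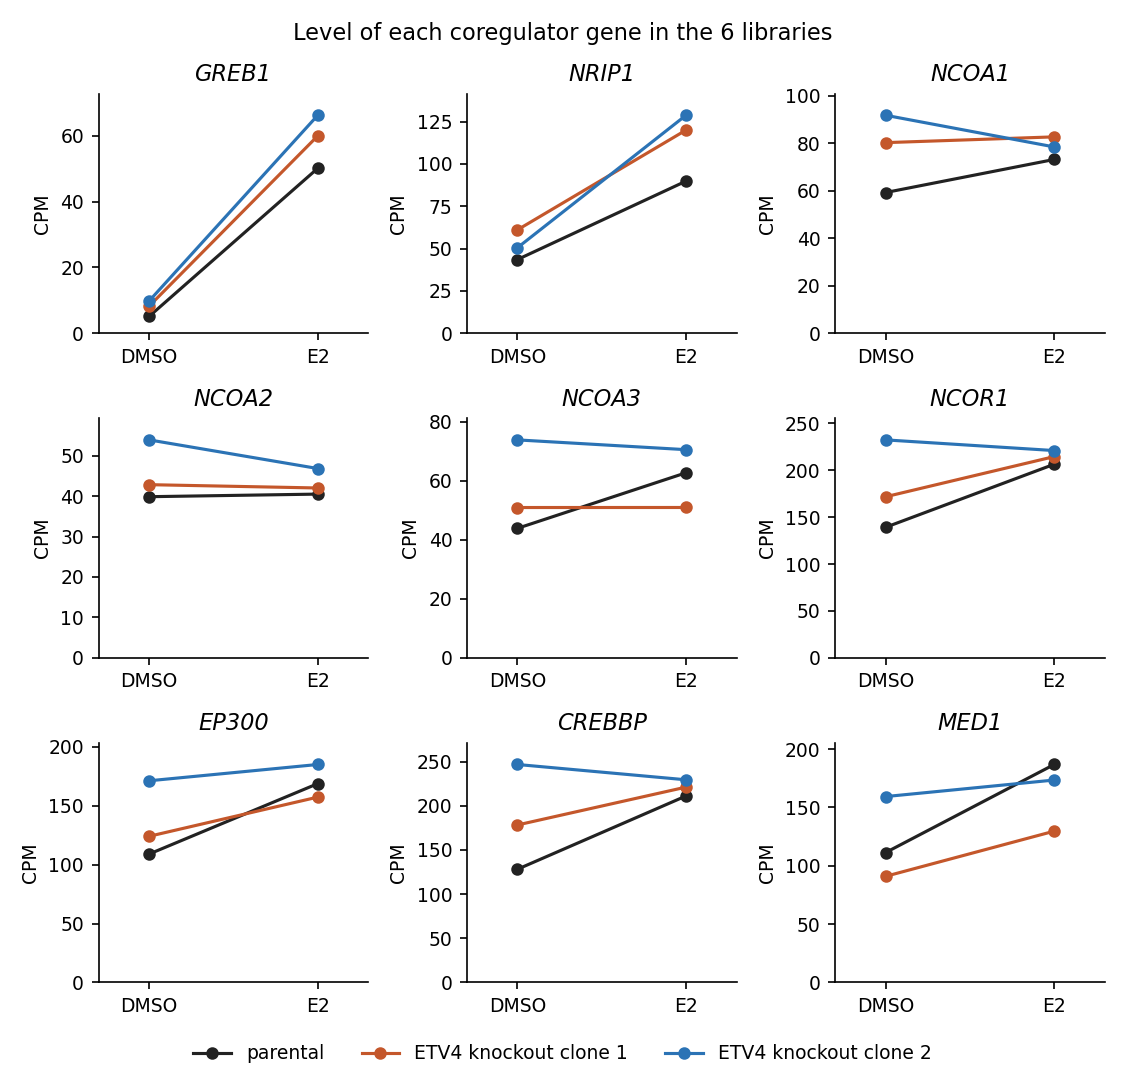
Level of the 9 coregulator genes (CPM after TMM scaling, linear axes from 0) in the DMSO and the E2 library of the parental line, knockout clone 1 and knockout clone 2; each point is 1 library and lines join the libraries of a line. GREB1 and NRIP1 are higher in all 3 E2 libraries than in any DMSO library, and for the other 7 the treatments overlap.

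The p160 coactivators gave no change past the test. NCOA1 had 59.2 CPM with DMSO and 73.1 CPM with E2 in parental cells, 80.2 and 82.6 CPM in clone 1, and 91.7 and 78.4 CPM in clone 2, so the line moved it at least as much as the treatment did. Its log2 change with E2 was 0.04 (95% interval -0.28 to 0.36). NCOA2 was the steadiest of the 9, with 39.9 and 40.5 CPM in the parental line, 42.8 and 42.0 CPM in clone 1, and 53.9 and 46.8 CPM in clone 2. Its log2 change was -0.07 (95% interval -0.39 to 0.24), whose upper end lies below the lower end of the NRIP1 interval. The same held for NCOA1, NCOA3, NCOR1, EP300 and CREBBP, but not for MED1. NCOA3, also called AIB1 and amplified in some cancers, had 43.9 and 62.8 CPM in the parental line but 51.0 and 51.0 CPM in clone 1 and 73.9 and 70.6 CPM in clone 2. The parental ratio was 1.43-fold, while each clone kept its own level, and the log2 change over the lines was 0.15 (95% interval -0.36 to 0.65).

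The corepressor scaffold and the acetyltransferases did not pass the test either. NCOR1 had 139 CPM with DMSO and 206 CPM with E2 in parental cells, 172 and 214 CPM in clone 1, and 232 and 221 CPM in clone 2. In E2 the 3 lines lay within 206 to 221 CPM, while in DMSO they were spread from 139 to 232 CPM. CREBBP, which acetylates histones at enhancers, had 128 and 211 CPM in the parental line, 178 and 221 CPM in clone 1, and 247 and 229 CPM in clone 2. It too was tight in E2 and wide in DMSO. EP300, its paralog, had 109 and 169 CPM in the parental line, 124 and 157 CPM in clone 1, and 171 and 185 CPM in clone 2. The DMSO library of clone 2 lay above every E2 library for NCOR1 and CREBBP, and within the range of the E2 libraries for EP300. Their log2 changes over the lines were 0.26 (SE 0.17) for NCOR1, 0.30 (SE 0.19) for CREBBP and 0.35 (SE 0.18) for EP300, and edgeR's adjusted p-values were 0.403, 0.402 and 0.304.

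MED1, the Mediator subunit that contacts the receptor, had the widest gap between the clones in DMSO among the 9. It had 111 CPM with DMSO and 187 CPM with E2 in parental cells, 91.0 and 130 CPM in clone 1, and 159 and 173 CPM in clone 2. Each line was higher in E2, but the DMSO level of clone 2 exceeded the E2 level of clone 1. The log2 change was 0.43 (SE 0.24, 95% interval -0.15 to 1.01), with edgeR giving an adjusted p of 0.346. Without clone 2 it was 0.63 and without clone 1 it was 0.41, so its size depended on the lines kept. MED1 passed the test without clone 2, a setting that also called far more of all genes and keeps 1 library per genotype and treatment. Between the clones MED1 differed 1.75-fold in DMSO and 1.34-fold in E2, the former being the only difference of at least 1.5-fold between clones among the 9 coregulators (background in DMSO 10.2% higher and 8.49% lower in clone 2, and in E2 8.62% and 7.49%).

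**Figure D2:**
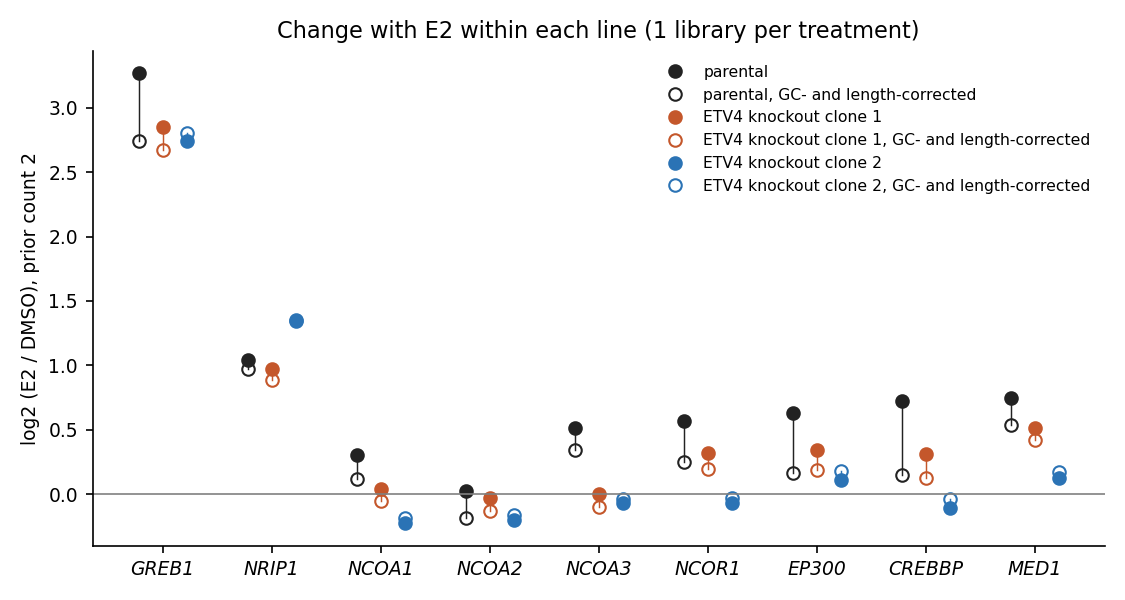
Log2 ratio of the E2 to the DMSO library within each line (prior count 2) for each coregulator gene; filled points are uncorrected, and open points are corrected for the trend of each library with GC content and gene length. Among the 7 genes other than GREB1 and NRIP1, filled points reach 0.75 in the parental line and 0.12 in clone 2. The parental filled point is the largest of the 3 for each of them. The parental open point is the lowest of the 3 for NCOA2 and EP300.

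Within single lines the E2 ratios differed in size. In parental cells 5 of the 9 coregulators were at least 1.5-fold higher in E2 (GREB1, NRIP1, EP300, CREBBP and MED1), where 21.5% of all tested genes were. In clone 1 and in clone 2 only GREB1 and NRIP1 were, against backgrounds of 9.73% and 9.12%. The median log2 ratio of the 9 was 0.63 in parental cells, 0.32 in clone 1 and -0.07 in clone 2, while the medians over all tested genes were 0.00, -0.00 and 0.01. For 8 of the 9 the parental ratio was positive and larger than in both clones, as for 39.3% of all tested genes, and NRIP1 was the exception. All 3 E2 libraries lay above all 3 DMSO libraries for 2 of the 9, GREB1 and NRIP1, and for 13.5% of all tested genes. The parental DMSO library was the lowest of the 6 for the 8 coregulators other than MED1, as for 32.2% of all tested genes. These ratios each compare 1 library with 1 library and have no replicate check. Scaling by total counts raised the median parental ratio of all tested genes by 0.18 and those of clones 1 and 2 over parental in DMSO by 0.17 and 0.22. It changed the sign of no coregulator's ratio but that of NCOA3 in clone 1, which is near 0.

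Gene length and, in parental cells and clone 1, base composition moved with these ratios. As a description across 14607 tested genes, which do not act as replicates, the ratio had a Spearman rho with GC content of 0.336 in parental cells, 0.132 in clone 1 and -0.00922 in clone 2, and with length 0.233, 0.165 and -0.117. All 9 coregulators belong to the longest quintile of tested genes, those with at least 6179 bases of merged exons, and their lengths ran from 6868 bases for MED1 to 11153 bases for GREB1. Over all genes of that quintile the median log2 ratio of E2 to DMSO was 0.26 in parental cells, 0.10 in clone 1 and -0.01 in clone 2, and over the shortest quintile it was -0.34, -0.10 and 0.10. The GC content of the 9 ran from 38.8% for NRIP1 to 55.75% for CREBBP. What part length and GC content have in the ratios was not tested directly. After a correction for each library's trend with GC content and length, chosen after the data had been seen, the parental log2 ratio of CREBBP went from 0.72 to 0.15, that of EP300 from 0.63 to 0.16 and that of NCOR1 from 0.57 to 0.25. That of MED1 went from 0.75 to 0.54 and that of NCOA3 from 0.51 to 0.34. That of NCOA1 went from 0.30 to 0.12 and that of NCOA2 from 0.02 to -0.19. That of GREB1 went from 3.27 to 2.74, beside corrected values of 2.67 in clone 1 and 2.80 in clone 2. The corrected NRIP1 values were 0.97, 0.89 and 1.35 in turn. In the corrected test over the 3 lines both passed again, at a log2 change of 2.75 for GREB1 and 1.07 for NRIP1, and edgeR gave adjusted p-values of 3.61e-04 and 0.00886.

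**Figure D3:**
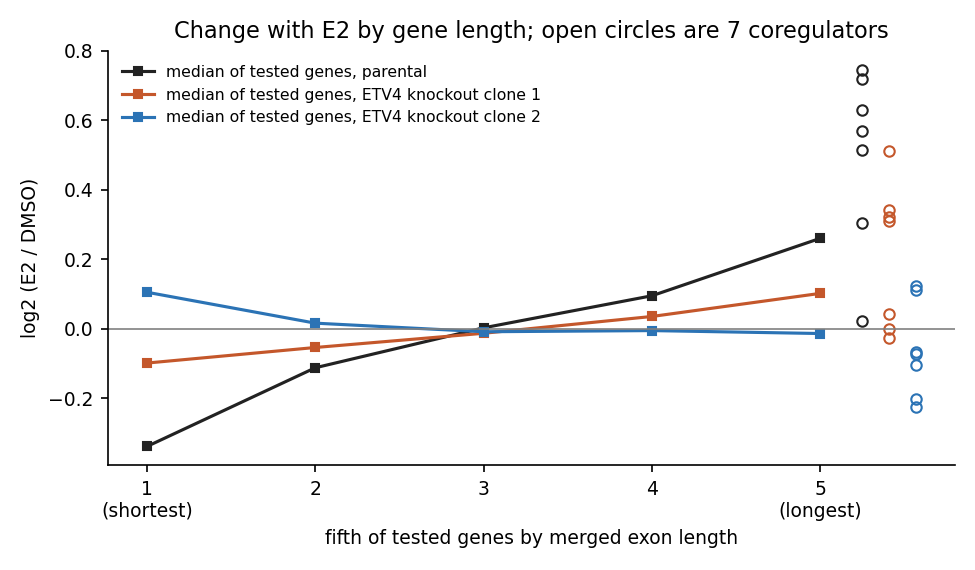
Median log2 ratio of E2 to DMSO in each line over tested genes split into quintiles by merged exon length (squares), with the 7 coregulators other than GREB1 and NRIP1 beside the longest quintile (open circles, colored by line). The parental medians run from -0.34 in the shortest quintile to 0.26 in the longest, and 6 of the 7 parental circles lie above the latter. The parental quartiles of the longest quintile are -0.16 and 0.67, and only CREBBP (0.72) and MED1 (0.75) lie above the upper one.

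The clones were also tested alone, to ask which coregulators respond to E2 with ETV4 knocked out. GREB1 passed at a log2 change of 2.79 (SE 0.17) and an edgeR adjusted p of 0.00785. NRIP1 had a log2 change of 1.15 (SE 0.15) and an adjusted p of 0.0600 in that test, against a threshold of 0.05. With the replicate block, which pairs the libraries of each clone, its adjusted p was 6.15e-16 in edgeR at the same log2 change of 1.15, but that fit rests on 1 residual degree of freedom and a spread shared by all genes. Thus 1 of 9 coregulators was called higher (background 0.316%), or 2 of 9 with the block (background 8.54%). The other 7 had log2 changes from -0.13 for NCOA2 to 0.27 for MED1, and none passed in either fit.

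The knockout comparison asked whether the clones differ from the parental line in the machinery through which the receptor acts. None of the 9 coregulators passed (background 0.327% in either direction), and DESeq2's Wald test also called 0 (background 2.95%). By either tool GREB1 and NRIP1 were the 2 coregulators with an unadjusted p under 0.05. Of all 15611 genes, 1787 had one in edgeR and 1874 in DESeq2. GREB1 was 0.55 higher in the clones on the log2 scale (SE 0.17, 95% interval 0.15 to 0.94, edgeR adjusted p 0.312). NRIP1 was 0.41 higher (SE 0.13, 95% interval 0.10 to 0.73, adjusted p 0.332 in the same edgeR test). This fit takes the 2 libraries of a line as independent, so its SEs, intervals and p-values may be too small. With the replicate block, fitted in limma, GREB1 was 0.47 higher (SE 0.18, adjusted p 0.491) and NRIP1 0.41 higher (SE 0.15, adjusted p 0.446). In the edgeR fit the other differences ran from -0.07 (SE 0.26) for MED1 to 0.40 (SE 0.21) for CREBBP. These sizes depended on the parental DMSO library: without it GREB1 was at 0.32, CREBBP at 0.085, NCOR1 at 0.068, NCOA1 at 0.13, NCOA2 at 0.12 and EP300 at 0.011, while NRIP1 was at 0.46. Without that library NCOA3 was at -0.055, and MED1 lay further from 0, at -0.31. With the GC and length correction GREB1 was at 0.34, CREBBP at 0.18, NCOR1 at 0.11, NCOA1 at 0.22, NCOA2 at 0.069 and EP300 at 0.020. NRIP1 was then at 0.32, NCOA3 at 0.10 and MED1 at -0.18. The lower 95% bound lay between -0.69 for MED1 and 0.15 for GREB1.

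The clones were also set beside the parental library of each treatment. In DMSO GREB1 was 1.60-fold the parental level in clone 1 and 1.90-fold in clone 2, the 1 coregulator at least 1.5-fold higher in both (background 10.1%). All but MED1 were higher in both clones by some amount in DMSO, 8 of 9 against 42.0% of all tested genes. In E2 6 of 9 were (background 35.6%), and none was 1.5-fold higher in both clones (background 3.89%). CREBBP went from 1.39-fold and 1.92-fold the parental level in DMSO to 1.05-fold and 1.09-fold in E2. NRIP1 stood at 1.40-fold in DMSO and 1.34-fold in E2 in clone 1, and at 1.16-fold and 1.43-fold in clone 2, so the order of the clones differed between treatments. MED1 stood on opposite sides of the parental level in DMSO, at 0.817-fold in clone 1 and 1.43-fold in clone 2, and below it in both clones in E2, at 0.694-fold and 0.929-fold. All of these values share the parental library of their treatment. Over all genes of the longest quintile the median log2 ratio to parental in DMSO was 0.19 in clone 1 and 0.35 in clone 2. With the correction for GC content and length the DMSO log2 ratios of GREB1 were 0.38 and 0.31, in place of 0.68 and 0.93, and no longer reached 1.5-fold. Those of CREBBP were 0.17 and 0.29 in DMSO and 0.14 and 0.10 in E2, so the treatments lay closer together than without it. NCOA2 and EP300 were then below the parental level in clone 1 in DMSO, at -0.06 and -0.09. The median of the 9 in DMSO went from 0.30 to 0.07 in clone 1 and from 0.65 to 0.29 in clone 2.

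**Figure D4:**
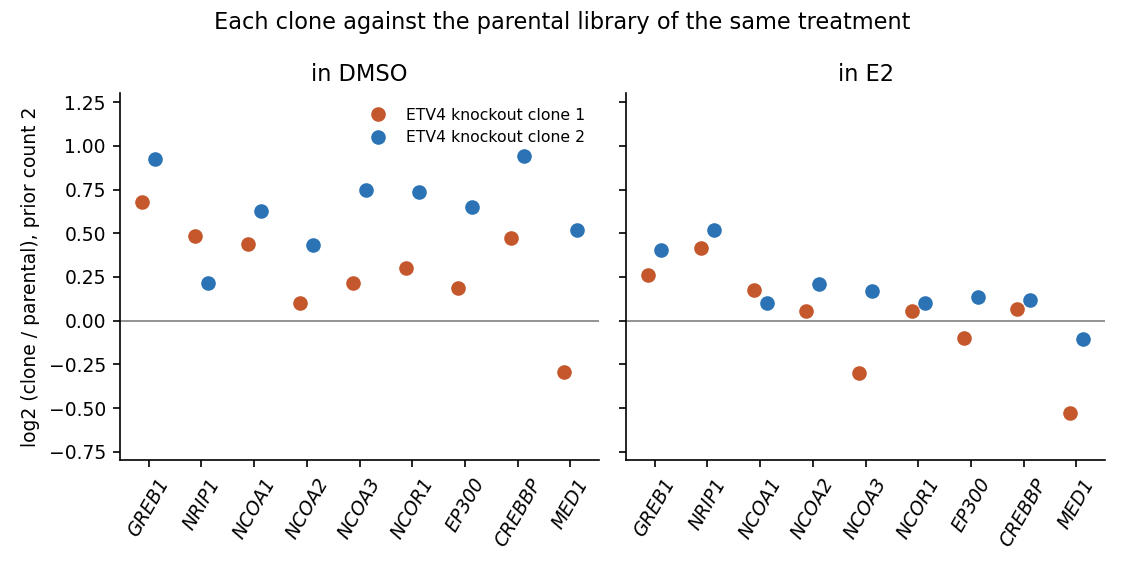
Log2 ratio of each knockout clone to the parental library of the same treatment (prior count 2), in DMSO (left) and in E2 (right), with 1 point per clone. Points in DMSO reach 0.94 (CREBBP in clone 2), and points in E2 lie between -0.53 (MED1 in clone 1) and 0.52 (NRIP1 in clone 2).

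Whether the E2 change itself differed between clones and parental line was tested by the interaction. None of the 9 coregulators passed in edgeR's quasi-likelihood test, which called 0 of all 15611 genes (1190 with an unadjusted p under 0.05), and none had an unadjusted p under 0.05. DESeq2 called none of the 9 (background 0.167%) but gave no adjusted p for 5 of them. With the replicate block 15.8% of all genes passed and none of the 9 did. Of the 9, 3 (GREB1, NCOA3 and CREBBP) had an unadjusted p under 0.05 with the block, as had 4552 of all 15611 genes. That fit, like the fit of the clones alone with the block, rests on few residual degrees of freedom. The E2 log2 change of GREB1 was 0.48 lower in the clones (95% interval of the difference -1.16 to 0.20), and that of CREBBP 0.64 lower (-1.45 to 0.18). For NRIP1 the difference was 0.11 (-0.52 to 0.74). The corrected differences were -0.01 for GREB1, -0.11 for CREBBP and 0.14 for NRIP1. The intervals of the fit without the block, which ignores the pairing by line, are wide. In that fit a response weaker in the clones by a log2 unit could not be told from no difference for NCOA3, NCOR1, EP300, CREBBP, MED1 or GREB1. With the block the intervals were narrower, at -0.95 to -0.0065 for GREB1, -0.99 to -0.11 for NCOA3 and -1.11 to -0.12 for CREBBP. Those of NCOR1, EP300 and MED1 spanned 0 with the block too.

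**Figure D5:**
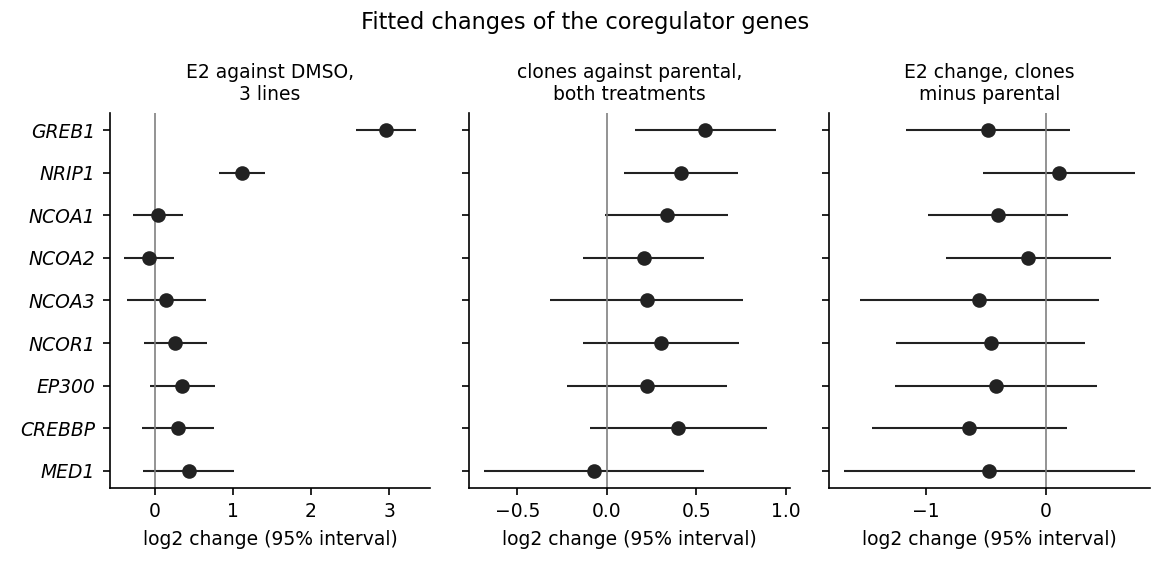
Log2 changes of the 9 coregulator genes with their 95% intervals from edgeR's quasi-likelihood fits: E2 against DMSO over the 3 lines, clones against parental over both treatments, and the E2 change of the clones minus that of the parental line. In the first panel GREB1 (2.96) and NRIP1 (1.12) stand clear of 0, and in the third every interval spans 0.

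Levels of different genes were compared as CPM per kb of merged exons. MED1, CREBBP, NCOR1 and EP300 filled the upper 4 places in every library, from 11.4 (EP300 in parental DMSO) to 27.2 CPM per kb (MED1 in parental E2). EP300 was the lowest of these 4 in each library, and MED1 was the highest in the parental and clone 2 libraries but lay below CREBBP and NCOR1 in both clone 1 libraries. In DMSO the levels overlapped, with MED1 at 13.2 to 23.2, CREBBP at 11.9 to 22.8, NCOR1 at 12.6 to 21.0 and EP300 at 11.4 to 17.9 CPM per kb. Below them came NCOA1 at 7.86 to 12.2, NCOA3 at 5.50 to 9.26 and NCOA2 at 4.72 to 6.38 CPM per kb. GREB1 was last in DMSO at 0.461 to 0.882 CPM per kb and reached 4.49 to 5.94 in E2, beside NCOA2. NRIP1 went from 5.62 to 7.88 CPM per kb in DMSO, among the p160 genes, to 11.6 to 16.6 in E2, above each of them.

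The balance between NRIP1 and the p160 coactivators, with which its protein competes, therefore moved at the mRNA level. NRIP1 amounted to 0.311 of the summed CPM per kb of NCOA1, NCOA2 and NCOA3 in the parental line in DMSO and to 0.518 in E2. The ratio went from 0.356 to 0.693 in clone 1 and from 0.234 to 0.670 in clone 2. It was higher in E2 in each line, by 1.67-fold, 1.94-fold and 2.86-fold. The p160 sum itself went from 18.1 to 22.4 CPM per kb in the parental line. In clone 1 the sum went from 22.1 to 22.3 and in clone 2 from 27.8 to 24.8. Each value rests on 1 library, without the GC and length correction. The ratio of NCOR1 to the same sum moved less, by 1.20-fold, 1.24-fold and 1.07-fold. Protein was not measured.

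The receptor and a standard target frame these values. ESR1 was lower in E2 in each line, at 199 and 154 CPM in the parental line, 276 and 203 CPM in clone 1 and 246 and 149 CPM in clone 2, with edgeR giving an adjusted p of 0.177. PGR, the progesterone receptor gene, rose from 1.61 to 34.8 CPM, from 7.31 to 71.5 CPM and from 2.66 to 62.6 CPM, and ESR2, the gene of estrogen receptor β, stayed under 1 CPM in every library.

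A wider list of 85 further coregulator genes, of which 83 could be tested, gave 1 call with E2 over the 3 lines, a share near the background of 1.13%. PPARGC1B, a coactivator that also binds estrogen-related receptors, rose from 7.70 to 38.4 CPM in the parental line, from 11.5 to 29.8 CPM in clone 1 and from 13.1 to 37.6 CPM in clone 2. Its log2 change was 1.74 (SE 0.22, edgeR adjusted p 0.0211), larger than that of NRIP1. It belongs to a group of 19 other coactivators, whose median log2 change was 0.23 against -0.02 over all tested genes. Of the 19, 7 had an unadjusted p under 0.05 in that edgeR test, as had 3180 of all 15611 genes. The median merged exon length of the group was 4791 bases, against 3575 for all tested genes. The histone methyltransferase gene KMT2D had the next largest change among these coactivators, 0.89, with an adjusted p of 0.191 in the same edgeR test.

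The remaining groups gave no call in that test, in which 3180 of all 15611 genes had an unadjusted p under 0.05. Of 21 corepressor genes 19 were tested, with a median of 0.09 and 2 unadjusted p-values under 0.05. SIN3B, a scaffold for deacetylases, had a log2 change of 0.71 (SE 0.23). The 31 other Mediator subunits had a median of -0.11, with MED20 at -0.62 (SE 0.15) and MED13L at 0.59 (SE 0.19) the furthest from 0, and 2 unadjusted p-values under 0.05. Their median merged exon length was 3055 bases, against 8447 for the 9 coregulators and 3575 for all tested genes. The 14 subunits of the chromatin remodeler SWI/SNF had a median of 0.04 and no unadjusted p under 0.05, with SMARCE1 at -0.37 (SE 0.17) and SMARCA4 at 0.36 (SE 0.22). DESeq2's Wald test called 4 of the 19 coactivators and 1 of the 19 corepressors higher with E2, against a background of 4.86%. It called 1 of the 31 Mediator subunits lower (background 2.28%) and 0 SWI/SNF subunits in either direction.

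The same 83 genes gave 0 calls in the knockout comparison, with 5 unadjusted p-values under 0.05 in edgeR and 0 calls by DESeq2, beside backgrounds of 0.327% and 2.95%. Of all 15611 genes 1787 had an unadjusted p under 0.05 in that edgeR test. In the clones alone edgeR called 0 (background 0.316% higher), with 4 unadjusted p-values under 0.05 against 1295 among all 14881 genes. DESeq2 called PPARGC1B there (background 1.49% higher). With the replicate block 8 were called higher and 3 lower there, against backgrounds of 8.54% and 6.42% of all tested genes. In the interaction edgeR called 0, with 6 unadjusted p-values under 0.05 (1190 among all 15611 genes), and DESeq2 called 0 (background 0.167%). With the replicate block 9 had a higher and 9 a lower E2 change in the clones, against backgrounds of 8.90% and 6.92%.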

How the data were processed

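RNA-seq counts were analysed for 6 libraries (3 lines, DMSO or E2). The deposited table holds raw counts per gene symbol and library; per the submitters' processing notes HISAT2, SAMtools, Subread, DESeq2 and hg19 were used, while versions, annotation and use of strand are not given in the sources used here. Reads shared with overlapping genes therefore cannot be assigned. The deposited normalized table was not used. Column names DMOS and ER were read as DMSO and E2.

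Counts were tested in R 4.3.3 with edgeR 4.0.16 (filterByExpr, TMM, quasi-likelihood test, Benjamini-Hochberg adjustment over all genes tested, threshold 0.05): treatment and genotype over 6 libraries, treatment in the 4 clone libraries (14881 genes), and the interaction. Standard errors were derived from each log2 coefficient and its F statistic, and intervals use the fit's degrees of freedom. Ratios of single libraries used a prior count of 2, with 1.5-fold as the fold described. Clone numbers in the labels join the libraries of a clone: across 15611 genes the difference between clones correlated between treatments at 0.626. For the replicate block, line entered as a fixed term, or as a random effect in limma 3.58.1 for the knockout. Merged exon lengths and GC content came from GENCODE (93.6% of tested genes, 14607). Alternatives were median-ratio scaling, other filters, DESeq2 1.42.0, limma-voom, the block, each line left out, and, added after seeing the data, the GC and length correction and leaving out the parental DMSO library. The scripts were tested on simulated data. All 9 coregulators were named; of the wider lists, genes called without the block and the 2 with the largest E2 change per list, of which 1 is not reported here; and the 3 genes nearest GREB1 and NRIP1. Members and lists were chosen with earlier results of these data known. No column of other samples was present. Precision is limited by 1 library per line and treatment.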

Additional observations from a re-analysis of the deposited data

How the results depend on the processing

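With E2 over the 3 lines 176 genes were called (141 higher, 35 lower). The count was 1115 in DESeq2, 384 with the replicate block (268 higher, 116 lower), 354 with the GC and length correction (248 and 106) and 1445 with the correction and the block. It ran from 49 without the parental line to 3353 without clone 2, was 745 without clone 1, and was 56 without the parental DMSO library alone. For the knockout 51 genes were called, 460 in DESeq2, 111 with the correction, 631 without clone 1, 996 without clone 2, and 2 without the parental DMSO library. In the clones alone 49 were called, 310 in DESeq2, 2227 with the replicate block and 2994 with the correction and the block. The interaction called 0 genes, with 1190 unadjusted p-values under 0.05, 26 in DESeq2, 2470 with the replicate block and 1713 with the correction and the block. The other 20 counts were within 1.5 times.

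GREB1 passed under all 12 alternatives of the 3-line E2 test (2.75 to 3.06) and all 8 in the clones alone (2.74 to 2.80), and NRIP1 under 10 of 12 (1.01 to 1.17) and 4 of 8 (1.11 to 1.15). In the clones alone NRIP1 passed without a filter on low counts (adjusted p 0.0482, edgeR), in DESeq2 and in both fits with the block, and MED1 passed with the correction and the block at 0.29 (adjusted p 0.0342, edgeR). The block changed no other call of a coregulator. In the E2 test over the 3 lines MED1 passed under 1 of 12 alternatives, at 0.63 without clone 2.

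The sign changed in 13 cases, none past the threshold. For E2 over the 3 lines NCOA1 was -0.041 with the correction and -0.041 with the correction and block, and leaving out libraries gave -0.11 to 0.17 for NCOA1 and -0.055 to 0.26 for NCOA3. It was below 0 for both without the parental line and without its DMSO library. For the knockout leaving out libraries gave -0.055 to 0.45 for NCOA3, below 0 without clone 2 and without the parental DMSO library, and -0.41 to 0.19 for MED1, above 0 without clone 1. For the interaction NCOA2 was 0.036 and EP300 0.020 with the correction, and 0.037 and 0.020 with the block added. The causes were not tested. In the clones alone and the interaction no clone could be left out, since no residual degree of freedom would remain.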

Other observations

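The genes whose profiles over the 6 libraries lay nearest to those of GREB1 and NRIP1 were read by the distance between centered log2 CPM profiles, over 12365 other genes averaging 2 CPM or more. The 6 libraries share lines and treatments, so this is a description. Nearest to GREB1 was CA12, a membrane-bound carbonic anhydrase gene, at a distance of 0.43, with 3.02 and 27.5 CPM in the parental line, 5.75 and 33.2 CPM in clone 1 and 4.54 and 35.6 CPM in clone 2 in DMSO and E2. The transporter genes SLC6A12 and SLC6A6 followed at 0.60 and 0.62. SLC6A6, which encodes the taurine transporter, went from 37.3 to 202 CPM, from 44.3 to 303 CPM and from 53.1 to 306 CPM. Their log2 changes with E2 over the 3 lines were 2.88 (CA12), 3.01 (SLC6A12) and 2.57 (SLC6A6), given with no test because the likeness to GREB1 already holds the change with E2.

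Nearest to NRIP1 were EEPD1 at 0.28, DUSP5, a phosphatase gene of the ERK pathway, at 0.31 and PLCB1, a phospholipase C gene, at 0.32. PLCB1 went from 29.4 to 67.4 CPM in the parental line, from 35.7 to 85.2 CPM in clone 1 and from 31.1 to 78.1 CPM in clone 2. The log2 changes of EEPD1, PLCB1 and DUSP5 with E2 were 1.18, 1.26 and 0.93, again with no test.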
